A study of Homo sapiens with 10 samples.

Results

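Cholesterol synthesis and sterol sensing were followed in the human lymphoma line OCI-LY10 (diffuse large B-cell lymphoma, activated B-cell type) through 8 genes: INSIG1, SREBF2, HMGCS1, MVD, IDI1, FDFT1, SQLE and MSMO1. The members were chosen by name, with earlier results of these data known. Every probe that the platform's gene table assigns to one of them was taken. That gave 9 probes of 6 genes among the 48107 probes of the deposited table. IDI1 and FDFT1 had no probe in that gene table and were not analysed here. All 9 probes passed the filter on dim probes, which asked for a detection p-value below 0.05 on at least 5 of the 10 arrays and left 17125 probes in the test.

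The compared cultures received 1 micromolar CC-122 for 18 hours or the solvent DMSO alone for the same time, with 5 Illumina bead arrays in each group. CC-122 (avadomide) is a ligand of cereblon, which picks the substrates of a ubiquitin ligase, and directs the lymphoid transcription factors Ikaros and Aiolos to degradation. Both groups came from this 1 cell line, grown in RPMI1640 with fetal bovine serum, which itself supplies cholesterol in lipoproteins. The labels number the replicates 1 to 5 but do not state that each was its own culture, and the p-values reflect only how far these 5 arrays a group scatter, and that scatter may be technical.

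Between 18043 and 18844 probes were detected per array, and the median raw intensity was 108.9 on CC-122 replicate 3 and at most 81.6 on each other array. Of the B-cell markers looked up, the 4 with a named probe (MS4A1, CD79A, CD79B and CD22) were detected on all 10 arrays. Of 4 T and NK cell markers, 3 monocyte markers and 3 erythroid markers, 0 were detected on all arrays, and CD14 was detected on 9. Of 4 fibroblast and epithelium markers, EPCAM, an epithelial adhesion molecule, was detected on all 10. The others were detected on few or none: COL1A2 on 2, COL1A1 on 1 and KRT18 on 0.

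Cells make cholesterol from acetyl-CoA through the mevalonate pathway, whose isoprenoid intermediates also supply the lipid anchors of small GTPases. The genes are controlled together by SREBP-2, the product of SREBF2, a transcription factor that is held in the endoplasmic reticulum by SCAP and the INSIG proteins while sterols are abundant. When sterols run low, SCAP escorts SREBP-2 to the Golgi, the proteases encoded by MBTPS1 and MBTPS2 release its active part, and that part binds sterol regulatory elements, often beside sites of NF-Y (CCAAT boxes) and Sp1 (GC boxes). INSIG1 is itself a target of SREBP, so its transcript is commonly read as a gauge of SREBP activity.

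The promoters of the 2 genes that fell and of SREBF2 are shown because SREBP is known to act through promoter elements. Each is the 250 bases before the annotated start site, 5′ to 3′ on the gene's strand, from RefSeq on GRCh38.p14: INSIG1 at chr7:155297628-155297877 (plus strand), MVD at chr16:88663092-88663341 (minus strand) and SREBF2 at chr22:41832855-41833104 (plus strand). Capitals mark the sterol element core CACNCCAC, the E-box CACGTG and the CCAAT box, on either strand; no 2 of these matches overlap.
INSIG1: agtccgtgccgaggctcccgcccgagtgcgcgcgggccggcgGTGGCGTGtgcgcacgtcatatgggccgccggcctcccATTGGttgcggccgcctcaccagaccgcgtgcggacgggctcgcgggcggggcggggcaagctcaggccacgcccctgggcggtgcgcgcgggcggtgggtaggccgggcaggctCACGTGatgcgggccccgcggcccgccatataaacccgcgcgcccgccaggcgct
MVD: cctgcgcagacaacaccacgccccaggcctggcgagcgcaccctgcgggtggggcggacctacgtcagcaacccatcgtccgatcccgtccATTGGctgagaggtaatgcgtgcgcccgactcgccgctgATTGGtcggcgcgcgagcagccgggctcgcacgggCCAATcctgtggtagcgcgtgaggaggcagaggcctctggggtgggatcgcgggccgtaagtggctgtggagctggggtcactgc
SREBF2: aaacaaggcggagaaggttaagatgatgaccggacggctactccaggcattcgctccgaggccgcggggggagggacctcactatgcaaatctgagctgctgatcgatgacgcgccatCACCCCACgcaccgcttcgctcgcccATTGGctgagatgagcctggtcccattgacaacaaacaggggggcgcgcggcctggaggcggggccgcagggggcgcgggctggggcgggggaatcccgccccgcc

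The core CACNCCAC occurred once in the SREBF2 window, beginning 132 bases before the start site, and once in INSIG1, 208 bases before the start on the opposite strand. It was present in 4.87% of the 35116 RefSeq promoter windows of this length. The E-box CACGTG, present in 6.34% of windows, stood 55 bases before the INSIG1 start. The core had 0 matches in MVD, MSMO1 and HMGCS1, and the E-box 0 in those and in SREBF2. CCAAT on either strand, present in 32% of windows, occurred once in INSIG1, 3 times in MVD and once in SREBF2. MSMO1 and HMGCS1, whose windows are not printed, held it 4 times and 2 times. SQLE was not searched for any of these elements. The GC box GGGCGG (not capitalised), present in 42.6% of windows, occurred 5 times in INSIG1, once in MVD and 2 times in SREBF2. These matches describe letters in a window and show no binding. Only these exact letters were searched, within these windows, so 0 matches does not show that a gene lacks a sterol element.

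Of the 9 probes, 3 were lower after CC-122 and 0 were higher: both probes of INSIG1 and the probe of MVD. Among all 17125 probes tested, 10.1% were called, 4.34% as lower and 5.77% as higher. Because the members were chosen with earlier results of these data known, this comparison cannot show an excess. A probe was called when its p-value from limma, adjusted over all probes by the Benjamini-Hochberg method, was below 0.05. The median log2 fold change was -0.11 over the 9 probes and -0.02 over all probes tested. For 4 of the 9 probes every CC-122 array lay below every DMSO array; over all probes tested, 10.6% had groups that did not overlap, 4.76% with the CC-122 arrays below. These are levels in bulk RNA, in which fewer cells expressing a gene and less transcript per cell cannot be told apart.

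**Figure D1:**
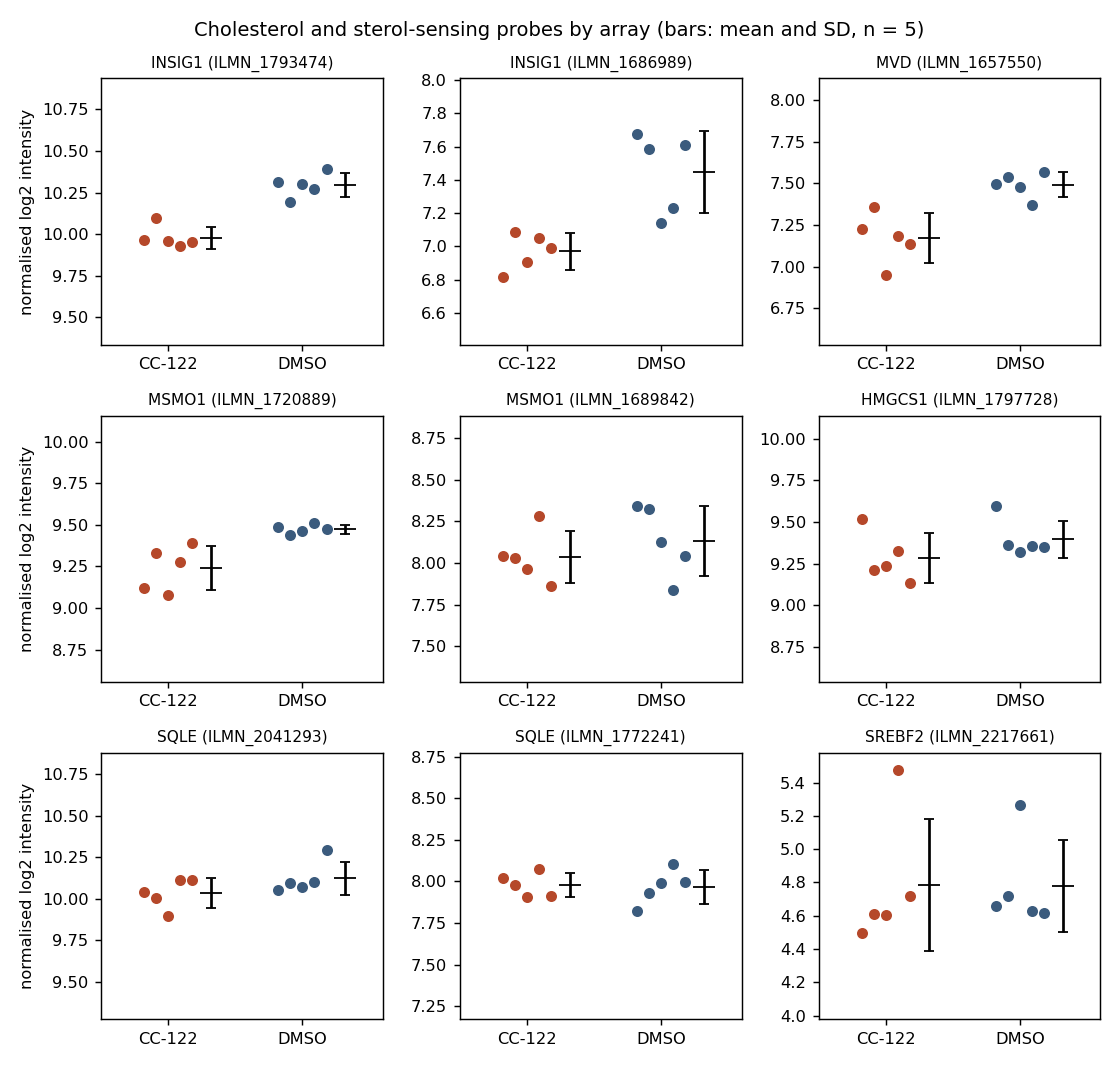
Normalised log2 intensity (vertical axis) of the 9 probes on each array, with CC-122 on the left and DMSO on the right of each panel; points are arrays, bars are the mean and SD of 5, and every panel spans the same number of log2 units. The CC-122 arrays lie below all DMSO arrays for both INSIG1 probes, MVD and 1 MSMO1 probe, and overlap with them in the other 5 panels.

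INSIG1, the sterol sensor that retains SCAP and SREBP in the endoplasmic reticulum, fell by both of its probes. Probe ILMN_1793474 read 9.96, 10.10, 9.96, 9.93 and 9.95 on the CC-122 arrays, against 10.31, 10.19, 10.30, 10.27 and 10.39 on the DMSO arrays (normalised log2 intensity, replicates 1 to 5). The groups did not overlap, and CC-122 replicate 2 came nearest to the DMSO arrays. The mean was 9.98 ± 0.07 after CC-122 and 10.29 ± 0.07 after DMSO (SD, n = 5 each). The difference was -0.31 ± 0.07 on the log2 scale (SE from limma, 95% interval -0.46 to -0.17, adjusted p = 0.0080), a transcript level that fell by 19.6%.

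The second INSIG1 probe, ILMN_1686989, gave 6.82, 7.09, 6.91, 7.05 and 6.99 on the CC-122 arrays, against 7.68, 7.59, 7.14, 7.23 and 7.61 on the DMSO arrays. DMSO replicates 3 and 4 lay close to the CC-122 arrays, while the other DMSO arrays stood higher, and the groups did not overlap. The level fell by 28.2%, with a log2 difference of -0.48 ± 0.11 (SE, 95% interval -0.72 to -0.23, adjusted p = 0.017 from limma). The intervals of the 2 probes overlap, and whether their changes differ was not tested. Both probes kept their call when any 1 array was left out, at -0.34 to -0.29 for the first and -0.56 to -0.42 for the second.

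The INSIG1 result can also be seen before normalisation. The raw intensity of ILMN_1793474 was 823, 1028, 894 and 1066 on CC-122 replicates 1, 2, 4 and 5, against 1165 to 1289 on the DMSO arrays. CC-122 replicate 3, the array that was brighter as a whole, read 1870.2. With that array left out and the other arrays normalised anew, the log2 difference was -0.31 (adjusted p = 0.020 from limma) for this probe and -0.46 (adjusted p = 0.039 from limma) for the second.

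SREBF2, which encodes SREBP-2, had a dim probe (ILMN_2217661), detected on 2 CC-122 arrays and 3 DMSO arrays. It read 4.50, 4.61, 4.60, 5.48 and 4.72 after CC-122 and 4.66, 4.72, 5.27, 4.63 and 4.61 after DMSO. CC-122 replicate 4 and DMSO replicate 3 stood above the rest, and the groups overlapped. The log2 difference was 0.0045 ± 0.18 (SE), with a 95% interval of -0.40 to 0.41 that takes in changes of either sign as large as that of the first INSIG1 probe, though not of the second (adjusted p = 0.99 from limma). Its sign turned without CC-122 replicate 4, at -0.17, and without DMSO replicate 1, 2, 4 or 5, at values down to -0.04.

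HMGCS1 joins acetyl-CoA and acetoacetyl-CoA into HMG-CoA, an early step of the pathway. Its probe read 9.52, 9.21, 9.23, 9.32 and 9.13 after CC-122, against 9.59, 9.36, 9.32, 9.36 and 9.35 after DMSO. Replicate 1 was the highest array in both groups, and the groups overlapped. The log2 difference was -0.11 ± 0.09 (SE, 95% interval -0.30 to 0.08, adjusted p = 0.51 from limma) and did not pass the test.

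MVD, the decarboxylase that makes isopentenyl diphosphate from mevalonate diphosphate, fell by 19.9%. Its probe read 7.23, 7.36, 6.95, 7.18 and 7.14 on the CC-122 arrays, against 7.50, 7.54, 7.48, 7.37 and 7.57 on the DMSO arrays. The groups nearly met at CC-122 replicate 2 and DMSO replicate 4 but did not overlap, and CC-122 replicate 3 was the lowest. The means were 7.17 ± 0.15 after CC-122 and 7.49 ± 0.07 after DMSO (SD, n = 5 each), a log2 difference of -0.32 ± 0.08 (SE, 95% interval -0.50 to -0.14, adjusted p = 0.027 from limma). The call held in 4 of the 10 fits that leave out 1 array. It was lost without CC-122 replicate 3 or 5 and without DMSO replicate 1, 2, 3 or 5, with log2 differences of -0.32 to -0.26 and adjusted p up to 0.064 from limma.

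SQLE, squalene epoxidase, which oxidises squalene in the first oxygen-dependent step of sterol synthesis, did not pass the test by either probe. ILMN_2041293 read 10.04, 10.01, 9.90, 10.11 and 10.11 after CC-122, against 10.05, 10.10, 10.07, 10.10 and 10.30 after DMSO, with a log2 difference of -0.09 (95% interval -0.25 to 0.07). ILMN_1772241 ranged from 7.91 to 8.08 after CC-122 and from 7.82 to 8.10 after DMSO, with a difference of 0.01 (95% interval -0.14 to 0.17). The groups overlapped for both probes, and neither interval reaches the estimate of INSIG1. The first difference was 0.0045 with median scaling, which moved the median over all probes to 0.06, and was negative under the other settings run. The sign of the second turned when an array was left out, at -0.03 without DMSO replicate 1 and -0.01 without CC-122 replicate 4.

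MSMO1, the C4-methyl sterol oxidase that removes methyl groups from lanosterol derivatives, did not pass the test by either of its 2 probes. ILMN_1720889 read 9.12, 9.33, 9.08, 9.28 and 9.39 after CC-122, against 9.49, 9.44, 9.46, 9.51 and 9.47 after DMSO. All CC-122 arrays lay below all DMSO arrays, which were close together (SD 0.03, against 0.13 after CC-122). The log2 difference of -0.23 ± 0.07 (SE, 95% interval -0.40 to -0.07) had an adjusted p of 0.069 from limma and was not called. It was called with another background correction, without any, among probes detected on all arrays, with 1 probe per gene and without CC-122 replicate 5. The second probe, ILMN_1689842, ranged from 7.86 to 8.28 after CC-122 and from 7.84 to 8.34 after DMSO, and its difference of -0.10 (95% interval -0.34 to 0.14) did not pass. The intervals of these probes overlap, and whether their changes differ was not tested. The table credits the probes to different transcript records of the gene.

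**Figure D2:**
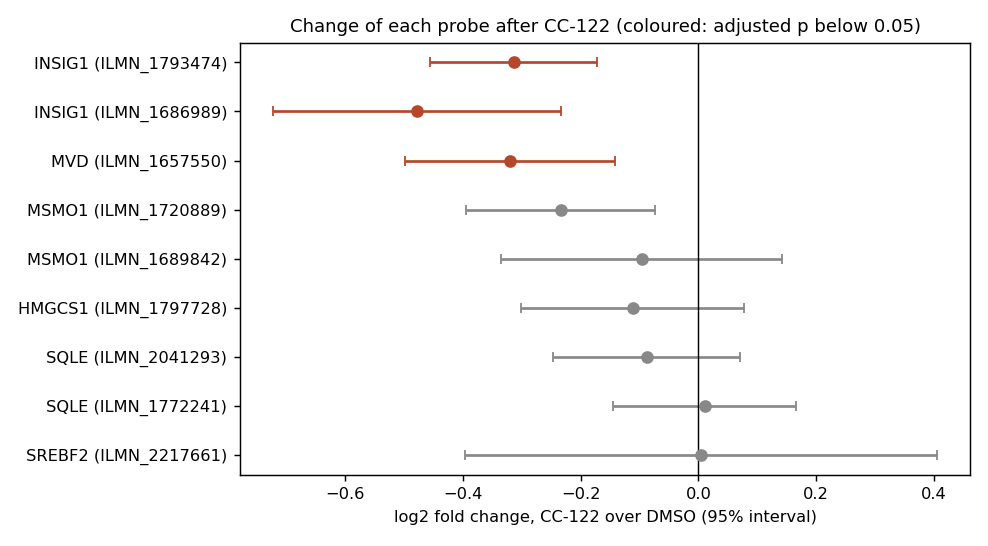
Log2 fold change of CC-122 over DMSO (horizontal axis) for each probe, with 95% intervals from limma; coloured points passed the test. Both INSIG1 probes and MVD lie left of 0 with adjusted p below 0.05, and the interval of SREBF2, from -0.40 to 0.41, is the widest.

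The wider pathway was read through 6 lists that also hold the members, with the brightest kept probe standing for each gene. Without the members, 50 of their 63 genes had a named probe and 41 passed the filter on dim probes. Of these, 5 were higher, 3 were lower and 33 did not pass the test, which is 19.5% called against 12.5% of all 9041 genes (7.13% higher and 5.38% lower). ABCA1 and GRAMD1B, both among the called genes, passed the filter through the group in which they were higher. The lists were chosen with earlier results of these data known, so these shares cannot show an excess. The median log2 fold change over the 41 genes was 0.04, and -0.01 over all genes.

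Among the other mevalonate and isoprenoid enzymes, 1 of 5 tested was lower. It was PMVK, phosphomevalonate kinase, which acts directly before MVD. It read 7.24, 7.11, 6.99, 7.03 and 7.19 after CC-122, against 7.65, 7.42, 7.39, 7.65 and 7.31 after DMSO. The groups did not overlap, and the log2 difference was -0.37 ± 0.09 (SE, adjusted p = 0.018 from limma). It kept its call when any 1 array was left out.

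Among the other sterol enzymes, 1 of 7 tested was lower and 6 were not called; the median log2 fold change was 0.04. LBR, which is both a sterol reductase and a receptor of the nuclear lamina, read 7.79, 7.92, 8.10, 8.16 and 8.03 after CC-122, against 8.26, 8.27, 8.25, 8.35 and 8.35 after DMSO. Its groups did not overlap, with a log2 difference of -0.30 ± 0.08 (SE, adjusted p = 0.032 from limma). The call held in 2 of the 10 fits that leave out 1 array. The other kept LBR probes differed by -0.27 and -0.01 and were not called.

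In sterol sensing and SREBP processing, 1 of 6 genes besides the members was higher. MBTPS2, the intramembrane protease that makes the second cut of SREBP, rose by a log2 difference of 0.32 ± 0.08 (SE; adjusted p = 0.026 from limma), with values of 5.89 to 6.27 after CC-122 and 5.61 to 5.84 after DMSO. That size was 0.18 with a fixed background offset of 50, and the call held in 4 of the 10 fits that leave out 1 array. INSIG2, the relative of INSIG1, differed by 0.0083 (95% interval -0.22 to 0.24). SCAP differed by 0.18 ± 0.09 and SREBF1, which encodes the SREBP that favours fatty acid genes, by 0.09 ± 0.08 (SE). None of these 3 passed the test. MBTPS1, whose protease makes the first cut, was singled out after its values were seen. It differed by -0.31 (95% interval -0.50 to -0.11, adjusted p = 0.053 from limma) and was not called, with groups that overlapped. The other kept MBTPS1 probe differed by -0.11 (adjusted p = 0.66 from limma), also with groups that overlapped.

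Of 9 genes of cholesterol uptake, transport and esterification, 1 was higher and 1 lower. NPC2, a lysosomal cholesterol carrier, rose by 0.22 ± 0.06 (SE, adjusted p = 0.046 from limma), with 9.80 to 9.88 after CC-122 and 9.51 to 9.72 after DMSO. GRAMD1B, a sterol transporter at contacts of the plasma membrane and endoplasmic reticulum, fell by 0.46 ± 0.13 (SE, adjusted p = 0.045 from limma). It was detected on 2 CC-122 arrays and 5 DMSO arrays, so it passed the filter on dim probes through the group in which it was higher. Without that filter its adjusted p was 0.10 from limma. Its groups overlapped, and its change was -0.21 with the fixed offset. NPC2 kept its call in 1 and GRAMD1B in 2 of the 10 fits that leave out 1 array.

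Of 4 genes tested in the liver X receptor arm, which answers to excess sterol, 1 was higher. ABCA1, the exporter of cellular cholesterol, was detected on all 5 CC-122 arrays and on 0 DMSO arrays, so it passed the filter on dim probes only through the group in which it was higher. It read 4.72, 4.69, 4.93, 4.76 and 5.02 after CC-122, against 4.34, 4.36, 4.59, 4.37 and 4.44 after DMSO. Because it was not above background after DMSO, its change is a bound of at least 1.12-fold higher. For the bound, the CC-122 mean is set against a floor taken on each DMSO array. That floor is the probe's own signal, or the lowest signal of any detected probe where that is higher. The means were 4.82 ± 0.14 after CC-122 and 4.42 ± 0.10 after DMSO (SD, n = 5 each). The call (adjusted p = 0.0086 from limma) belongs to the fitted log2 difference of 0.40, and the bound was not tested. The call was lost without background correction, at a log2 difference of 0.15 (adjusted p = 0.051 from limma).

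Of 10 genes of the fatty acid arm, 2 were higher, 0 were lower and 8 were not called; the median log2 fold change was 0.12. LPIN1, a phosphatidate phosphatase, read 9.57, 9.56, 9.69, 9.68 and 9.76 after CC-122, against 9.29, 9.35, 9.30, 9.10 and 9.33 after DMSO. Its groups did not overlap, and it rose by 0.38 ± 0.07 (SE, adjusted p = 0.0049 from limma), a call kept when any 1 array was left out. ACSS2, which makes cytosolic acetyl-CoA from acetate, rose by 0.27 ± 0.07 (SE, adjusted p = 0.026 from limma), with 6.92 to 7.19 after CC-122 and 6.75 to 6.86 after DMSO. The call held in 3 of the 10 fits that leave out 1 array, and its other kept probes differed by 0.42 and 0.38 and were not called.

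**Figure D3:**
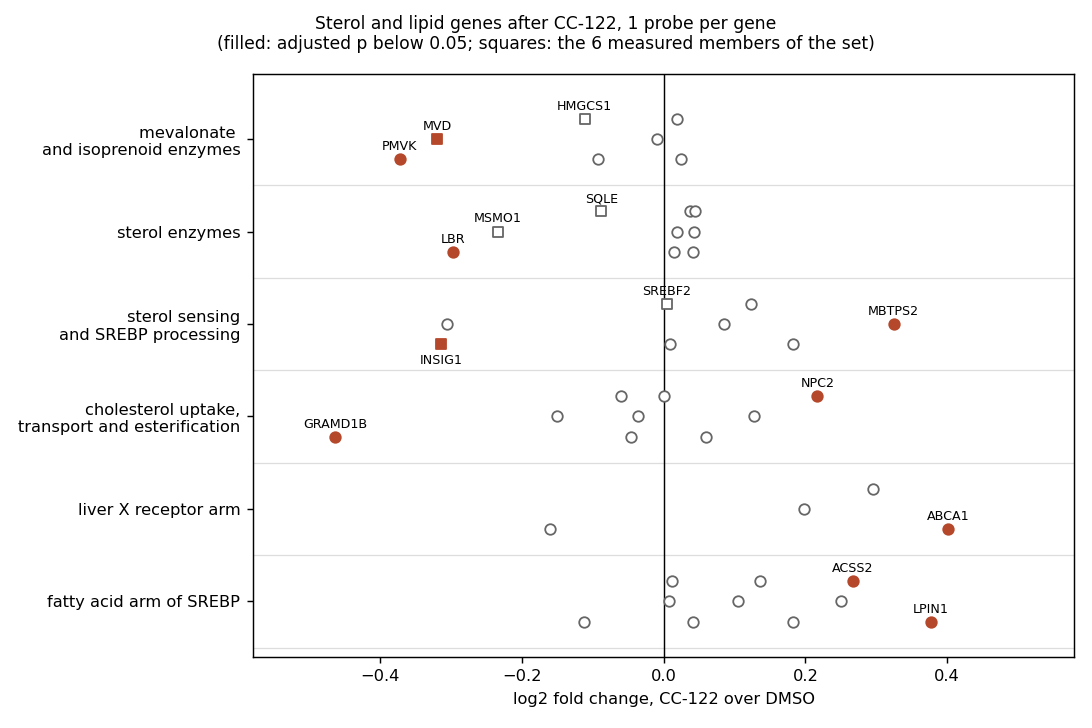
Log2 fold change of CC-122 over DMSO (horizontal axis) for each tested gene of the 6 lists, 1 probe per gene; squares are the measured members, circles the other genes, and filled symbols passed the test. PMVK, MVD, LBR, INSIG1 and GRAMD1B are the filled symbols left of 0, and MBTPS2, NPC2, ABCA1 (fitted value; the bound is smaller), ACSS2 and LPIN1 those right of 0.

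With the members, 10 of 47 list genes were called, 5 in each direction. That total was 5 or 6 without CC-122 replicate 1, 2, 3 or 5 or DMSO replicate 1, 4 or 5. MBTPS2, GRAMD1B and ABCA1 were not called without background correction, nor NPC2, LBR and GRAMD1B without the filter on dim probes. With median scaling in place of quantile normalisation 0 of the 9 member probes and 0 of the 47 list genes were called, while 671 of all probes were, of which 84.4% were higher, against 1732 and 57% with quantile normalisation. INSIG1 and MVD stayed negative there, at -0.22 and -0.38 for the INSIG1 probes and -0.23 for MVD.

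**Figure D4:**
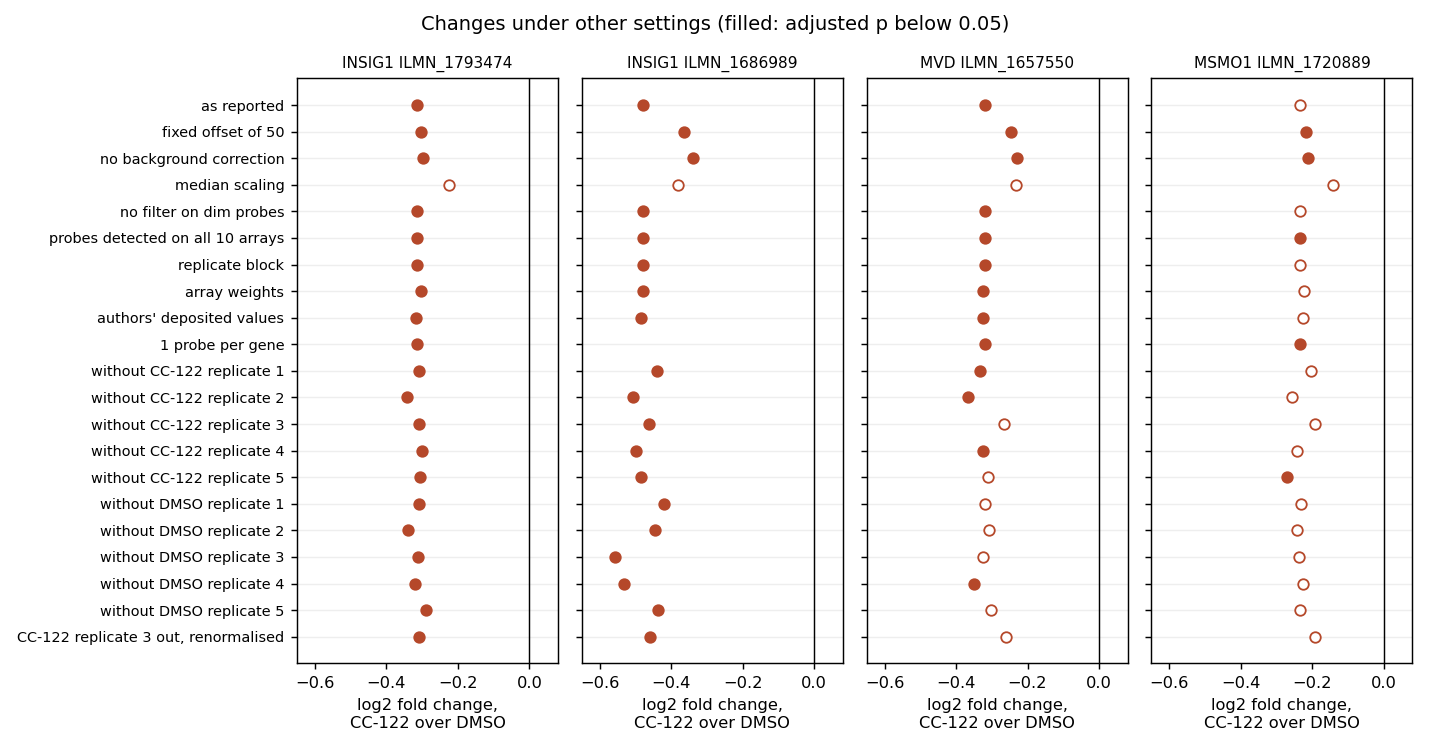
Log2 fold change of CC-122 over DMSO (horizontal axes) for 4 probes under each setting (rows); filled points had an adjusted p below 0.05 in that fit. Every value shown lies left of 0, the INSIG1 probes are open only with median scaling, and MVD and MSMO1 change between open and filled.

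The genes whose profile over the 10 arrays was most like that of INSIG1 (ILMN_1793474) were ranked by the root-mean-square difference between centred log2 values, among 9035 genes outside the set. SMYD3 came nearest, at 0.042 log2 units, followed by PCMTD2 and PRNP, both at 0.064, YOD1 at 0.064 and RALA at 0.067. Their log2 fold changes lay between -0.33 and -0.29. MVD, at 0.093, and MSMO1, at 0.10, would stand at positions 63 and 118 of that ranking, SQLE at 988, HMGCS1 at 1964 and SREBF2 at 8149. This likeness includes the difference between the groups and is a description.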

How the data were processed

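The deposited bead intensities of 48107 probes were on a linear scale and not normalized, per the file headers and name, and each probe carried a deposited detection p-value for every array. Normalized log2 values that the authors deposited separately, judged log2 from their range, served only as an alternative, by a normalization method not given in the sources used here. They matched the values computed here array by array (correlation across probes at least 0.99993, median difference 0.044), each column median was 4.54, and no centring of genes was seen. 1 probe without a value on an array was left out.

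The neqc function of limma 3.58.1 (R 4.3.3) gave the log2 values used (background from detection p-values, offset 16, quantile). CC-122 was compared with DMSO by lmFit and eBayes, two-sided, over all 17125 probes kept, of which 11754 were named through the platform table and current gene identifiers. Group means carry an SD, log2 fold changes a standard error. Named genes were the members, up to 6 called genes per list, INSIG2, SCAP, SREBF1 and ABCA1 whatever their values (the rule's other genes had no probe in the platform table and were not analysed here), and the 5 genes most like INSIG1. Members and lists were chosen with earlier results of these data known. The number of arrays limits the precision.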

Additional observations from a re-analysis of the deposited data

Results flagged for a closer look

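In 5 of 18 sets of 5 arrays (9 probes in each group), 1 array stood apart by Dixon's test at a critical ratio of 0.71, a test that chance passes in about 5% of sets. For INSIG1 (ILMN_1793474) it was CC-122 replicate 2 at 10.10, against 9.96 for the next CC-122 array. For SREBF2 it was CC-122 replicate 4 at 5.48, next to 4.72, and DMSO replicate 3 at 5.27, also next to 4.72. For HMGCS1 it was DMSO replicate 1 at 9.59, next to 9.36. For SQLE (ILMN_2041293) it was DMSO replicate 5 at 10.30, next to 10.10. Each of these was the highest array of its group. Without CC-122 replicate 2 the INSIG1 difference was -0.34, still called (the adjusted p was at most 0.023 with any 1 array left out, by limma).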

How the results depend on the processing

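INSIG1 was called lower by both probes under the settings run (its second probe is not in the fit with 1 probe per gene) except median scaling, at -0.22 and -0.38. MVD was at -0.23 with median scaling and at -0.26 with CC-122 replicate 3 left out and the others normalized anew, a setting added after seeing the data, and lost its call in both. With 1 array left out, MVD ranged from -0.37 to -0.26, MSMO1 (ILMN_1720889) from -0.27 to -0.19, SQLE (ILMN_1772241) from -0.025 to 0.045, SREBF2 from -0.17 to 0.13 and INSIG2 from -0.049 to 0.080. MSMO1 was called at -0.22 with a fixed background offset of 50, at -0.21 without background correction, and at -0.23 among probes detected on all 10 arrays and with 1 probe per gene. With median scaling SQLE (ILMN_2041293) stood at 0.0045, under a shift of all probes. Signs turned for SREBF2 with array weights (-0.0025) and for INSIG2 with the 9 arrays normalized anew (-0.0058). The median log2 fold change over all probes was 0.06 with median scaling and -0.02 with quantile normalization. Called probes numbered 671 of all, 0 of the members and 0 of the list genes with median scaling, and 1381 to 1590, 2 to 3 and 5 to 8 with 1 array left out. List calls numbered 5 with the 9 arrays normalized anew. The causes were not tested.

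With the replicate block, 1501 of all probes, 3 member probes and 9 list genes were called. NPC2 and GRAMD1B lost their calls (adjusted p = 0.085 and 0.11 from limma). The adjusted p of the INSIG1 probes was 0.040 (ILMN_1793474) and 0.037 (ILMN_1686989), and that of MVD 0.047 (limma with the block). Same-numbered DMSO and CC-122 samples carry consecutive identifiers in the deposited intensities, and what that order stands for is not stated. The deviations of same-numbered arrays correlated at -0.0045 to 0.14, and 2 of 5 correlated best with their own number. The numbers were therefore not taken to pair the samples, though 5 such correlations are too few to exclude a pairing. Probes near background, such as SREBF2, GRAMD1B and ABCA1, limit what can be said of the size of a change.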
